A study of Mus musculus with 6 samples.

Results

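The genes described here encode the proteins of the cytosolic ribosome. They were taken from a table of read counts by symbol: Rpl or Rps followed by a number, with an optional a, x, y or l and a further number, together with Rpsa and the stalk genes Rplp0, Rplp1 and Rplp2. The rule found 81 genes among the 12431 in the table, of which 33 belong to the small subunit and 48 to the large subunit, the 3 stalk genes included. Kinases of ribosomal protein S6 and pseudogenes marked "-ps" were not taken. The symbol written Rps4y2 in the table corresponds to a transcribed pseudogene that RefSeq calls Rps4l.

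RNA was sequenced from follicular B cells, the main naive B cell population of the spleen, sorted as CD23+ CD21/35- cells and then held for 1 h in complete RPMI 1640 with no added stimulus. WT cells came from 3 male Gpr174+/Y mice and KO cells from 3 male Gpr174-/Y mice, all adult. Gpr174, on the X chromosome, encodes a G protein-coupled receptor of lysophosphatidylserine, and in the KO allele a tdTomato reporter stands where its only coding exon was. The replacement is germline, so every cell of a KO mouse developed without the receptor. Libraries were numbered 1 to 3 within each genotype, and the design gives 3 mice per genotype.

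Each ribosome joins a small subunit, which reads the mRNA, to a large subunit, which forms the peptide bond. Nearly every ribosomal protein is made in equal number for each particle, and the genes are transcribed in most cells at high and similar rates. Many of their mRNAs begin with a cytosine and an unbroken run of pyrimidines, the 5′ terminal oligopyrimidine or TOP element, through which mTOR signaling controls their translation with little change in mRNA amount. The mouse genome also holds many processed pseudogenes copied from these mRNAs, which resemble the parent gene closely at the 3′ end.

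The start of 60 of the 81 genes was found in the RefSeq promoter table (GRCm38.p6, windows of 250 bases before to 50 bases after each annotated start). A C at the annotated start followed by at least 4 more pyrimidines was found in 13 of the 60 genes (21.7%), against 3.01% of all 27025 genes with a promoter in that table. A gene with several annotated starts was counted, here and below, if any of them matched. The stretches below run from 15 bases before the start, and the capitals mark the pyrimidine run. For Rpl35a the start with a run is shown, and its other annotated starts have none. Rps6 and Rps18 are shown as small-subunit genes with a run, Rplp2 as a stalk gene, and Rps15a and Rpl35a because they lay on opposite sides of 0 in the comparison of genotypes. Rps3a, the gene that passed the test, has no such run at its annotated start and is shown without capitals.
Rps6 (chr4:86857353-86857382, minus strand): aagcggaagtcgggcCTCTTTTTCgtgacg
Rps18 (chr17:33955651-33955680, minus strand): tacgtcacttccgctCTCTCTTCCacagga
Rplp2 (chr7:141447636-141447665, plus strand): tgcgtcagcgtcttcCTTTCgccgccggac
Rps15a (chr7:118116133-118116162, minus strand): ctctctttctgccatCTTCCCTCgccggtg
Rpl35a (chr16:33056467-33056496, plus strand): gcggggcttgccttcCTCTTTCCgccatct
Rps3a (chr3:86142654-86142683, minus strand): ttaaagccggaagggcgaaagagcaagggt

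The runs in these genes differ in length, from 5 bases in Rplp2 to 9 in Rps6 and Rps18. Annotated starts can sit a few bases away from the start in use, so a gene with no run in this window may still carry one. In the same promoters, on either strand, the letters CCGGAAG were found in 25 of 60 genes (41.7%) against 9.93% of all genes. The letters TGACG were found in 30 (50.0%) against 23.0%, and the longer TGACGTCA, which contains them, in 4 (6.67%) against 2.03%. TATAAA was found in 7 (11.7%) against 15.7%. These are matches of letters and not sites of binding.

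The reads kept for ribosomal protein genes made up a small and narrow share of all counts. Many of these genes share sequence with other genes, as given below, and the part of that in the share was not tested. In the order of the replicate numbers, the 3 WT libraries gave 3.18%, 3.08% and 3.38%, and the 3 KO libraries gave 3.30%, 3.45% and 3.44%. Mean shares were 3.21% ± 0.154 (SD, n = 3) in WT and 3.40% ± 0.0867 (SD, n = 3) in KO. The groups overlapped, since WT replicate 3 lay above KO replicate 1. The difference, WT minus KO, was -0.184 percentage points, and it ran from -0.268 points without WT replicate 3 to -0.117 points without WT replicate 2. In bulk RNA, fewer cells of a type and less RNA per cell cannot be told apart.

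Both subunits gave the same picture. Small-subunit genes took 1.83%, 1.79% and 1.93% of all counts in WT and 1.91%, 1.98% and 1.97% in KO. Large-subunit genes, stalk included, took 1.35%, 1.29% and 1.45% in WT and 1.39%, 1.48% and 1.48% in KO. Both groups of values overlapped between genotypes, again because of WT replicate 3, and the small subunit held between 57.0% and 58.1% of ribosomal protein counts in every library. The summed counts of 76 genes for mitochondrial ribosomal proteins, which build the separate ribosome of the mitochondrion, stayed between 0.252% and 0.267% of all counts.

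**Figure D1:**
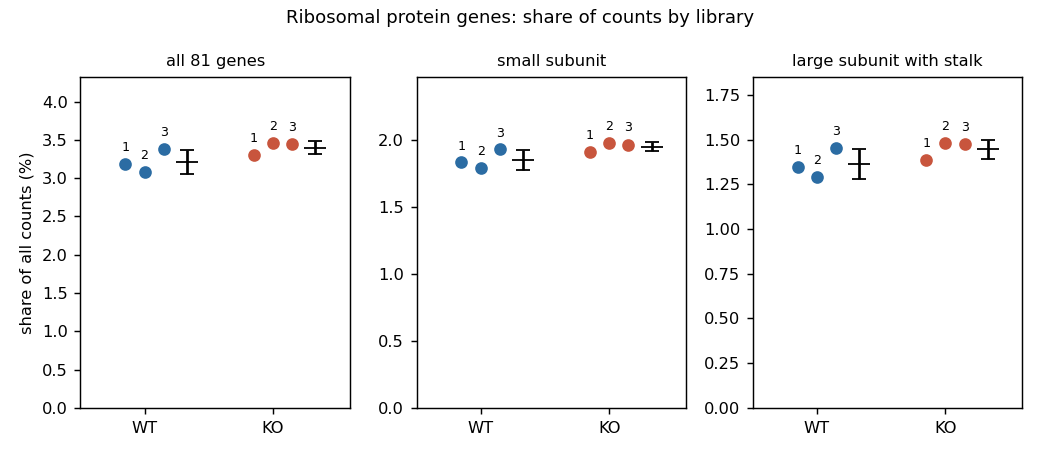
Share of all counts (%) in all 81 ribosomal protein genes, in the small subunit and in the large subunit with the stalk, with a point for each library (replicate number above it) and bars for mean ± SD (n = 3). WT replicate 3 (3.38%) sits among the KO libraries (3.30% to 3.45%), above the other WT libraries.

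Marker genes of B cells and of other cells were measured beside these shares. Summed follicular B cell markers (8 genes, among them Ms4a1 and Fcer2a) ranged from 4979 to 5194 CPM in WT and from 5595 to 5844 CPM in KO and did not overlap, where CPM is the count per 1000000 reads of the scaled library size. Of these 8 genes, Cd79b, which encodes a signaling chain of the B cell receptor, was lower in WT (log2 fold change -0.39 ± 0.06, SE; edgeR adjusted p = 0.000358). Summed erythroid markers (4 genes) ranged from 2684 to 4722 CPM in WT and from 3017 to 7589 CPM in KO, and overlapped. T cell markers (6 genes) ranged from 6.08 to 13.6 CPM in WT and from 5.10 to 8.77 CPM in KO, and overlapped. Myeloid markers (8 genes) ranged from 54.0 to 78.0 CPM in WT and from 44.0 to 58.2 CPM in KO, and overlapped. NK cell markers (4 genes) ranged from 7.61 to 11.7 CPM in WT and from 5.85 to 6.76 CPM in KO and did not overlap. By estimate, 4 of 4 tested T cell genes, 7 of 7 myeloid genes and 1 of 2 NK cell genes were higher in WT. The erythroid genes went the other way, with 4 of 4 lower in WT and a median log2 fold change of -0.74. Of the genes in these 4 sets, 0 were called by edgeR. The gene numbers count only markers found in the table. Plasma cell markers (5 genes) spanned 103 to 127 CPM and marginal zone B cell markers (5 genes) 271 to 303 CPM over all libraries. The part of other cells in the ribosomal protein share was not tested. Gpr174 itself was counted at 136, 125 and 121 CPM in WT and at 99.8, 100.2 and 99.8 CPM in KO (log2 fold change 0.35 ± 0.09, SE; edgeR adjusted p = 0.0359), and the edgeR adjusted p lay between 0.0513 and 0.168 when any library other than WT replicate 2 was left out. The libraries read the 3′ ends of transcripts and the replacement took the coding exon. Where the reads on Gpr174 lie was not tested, so this count is not used as a check of the genotype. Total counts ran from 8452460 to 10944833 per library.

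Counts were very uneven among the 81 genes. Mean counts per library ran from 1.67 for Rpl39l to 26258 for Rps14, with a median of 424.5. The 32 genes whose mean reached 1000 counts held 96.6% of all ribosomal protein counts, the 22 genes between 100 and 1000 held 2.98%, and the 27 genes below 100 held 0.421%. The 5 genes with the most counts held between 34.0% and 34.8% of ribosomal protein counts in every library. At the other end, Rpl34 and Rpl30, which encode proteins present in every ribosome, had means of 4 and 8.33 counts. Rps27, which has the paralog Rps27l, had a mean of 6.83 counts. These genes and Rpl39l were too low to be tested. Rps27a, Rpl10, Rps23, Rpl5 and Rpl11 had means between 23.7 and 34.5 counts. A count here is the number of reads kept for a gene and not a level of its RNA, and no scale per length was applied to reads from the 3′ end.

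Sequence shared with other genes was set beside these counts. For each gene a window of the last 200 coding bases and up to 100 bases after the stop codon was cut into stretches of 50 bases, and a stretch was called shared where another annotated gene's transcript held it without a mismatch. Many pseudogenes are annotated only as far as the stop codon, so these percentages are lower bounds. Of the 80 genes with such a window, 77 had at least 1 shared stretch and 59 (73.8%) had 50% or more shared, against 4.10% of 11428 other coding genes in the table. In all, 783 other genes held a shared stretch and 761 of these are annotated as pseudogenes. Only 8 of those pseudogenes were rows of the table, with 0.180% as many counts as the ribosomal protein genes.

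The genes with the least shared sequence held most of the counts. The 21 genes with under 50% shared had a median of 7845 counts and 17 of them passed 1000. The 25 genes from 50% to under 70% had a median of 351 counts, and the 34 genes with 70% or more had a median of 94.2 counts, with 6 past 1000. Rpl4 shared no stretch, and Rps3 shared 5.6%. Rps27, Rpl10, Rpl36a and Rpl9 shared all of theirs, and their means were 6.83, 28.5, 36.3 and 141 counts. Across the 80 genes, Spearman's rho between shared percentage and mean counts was -0.61, and it was -0.33 with a window of the last 300 bases of the transcript. Genes are not independent replicates and this is a description. The exceptions went both ways. Rpl39l, a paralog of Rpl39 known from testis, shared nothing and had 0 counts in all WT libraries and KO replicate 1, with 8 and 2 counts in KO replicates 2 and 3. Rplp2 shared 70.1% around the stop codon, though only 6.4% in the last 300 bases of its transcript, and had a mean of 5759 counts. How reads that fit several places were treated was not given in the sources used here, and the part of shared sequence in these counts was not tested.

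**Figure D2:**
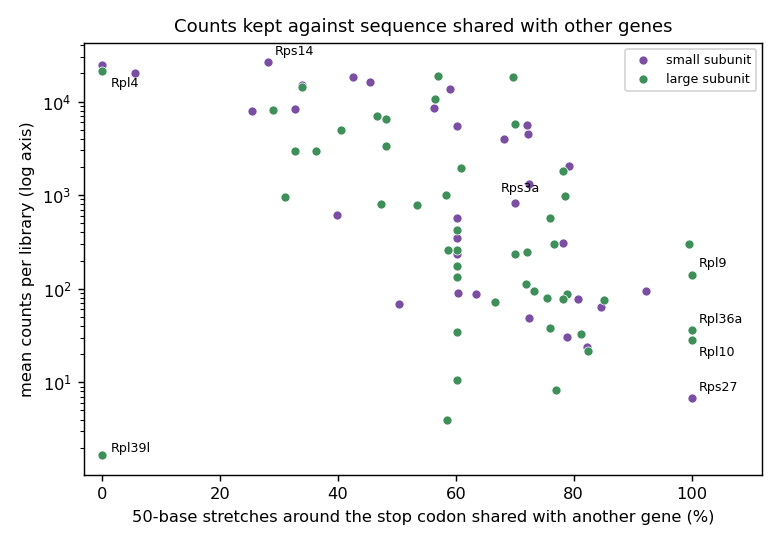
Mean counts per library (log axis) against the percentage of 50-base stretches around the stop codon that another annotated gene also holds, 1 point for each of 80 genes, colored by subunit. Rpl4 sits at 0% with a mean of 21336 counts, and the 4 genes at 100% lie at or below 141 counts.

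WT and KO were compared gene by gene with edgeR's quasi-likelihood F test over the whole table. Of the 81 genes, 77 passed its filter on low counts. Rps3a alone was called at a Benjamini-Hochberg adjusted p under 0.05, which is 1.3% of the 77 against 1.82% of the 10514 genes tested. With an unadjusted p under 0.05 stood 12 genes, 3 higher and 9 lower in WT (15.6%), against a background of 11.9% of all genes tested (6.5% higher and 5.37% lower). Groups did not overlap for 10 tested genes, 2 higher and 8 lower in WT (13%), against 16.7% of all genes (8.43% higher and 8.28% lower). Values are log2 fold changes of WT over KO unless stated otherwise.

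The center of the list lay at 0. The median log2 fold change of the 77 genes was -0.0058, beside -0.0026 over all genes tested, and 39 of 77 (50.6%) were below 0, beside 50.4% of all genes. The median was 0.04 for the 32 small-subunit genes tested and -0.04 for the 45 large-subunit genes. No large-subunit gene was called, with 0 of 45 by edgeR and 0 by DESeq2, while 6 had an unadjusted p under 0.05. Estimates spread with low counts: the genes under 1000 counts ran from -0.97 to 0.53, and those with at least 1000 counts from -0.32 to 0.23.

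**Figure D3:**
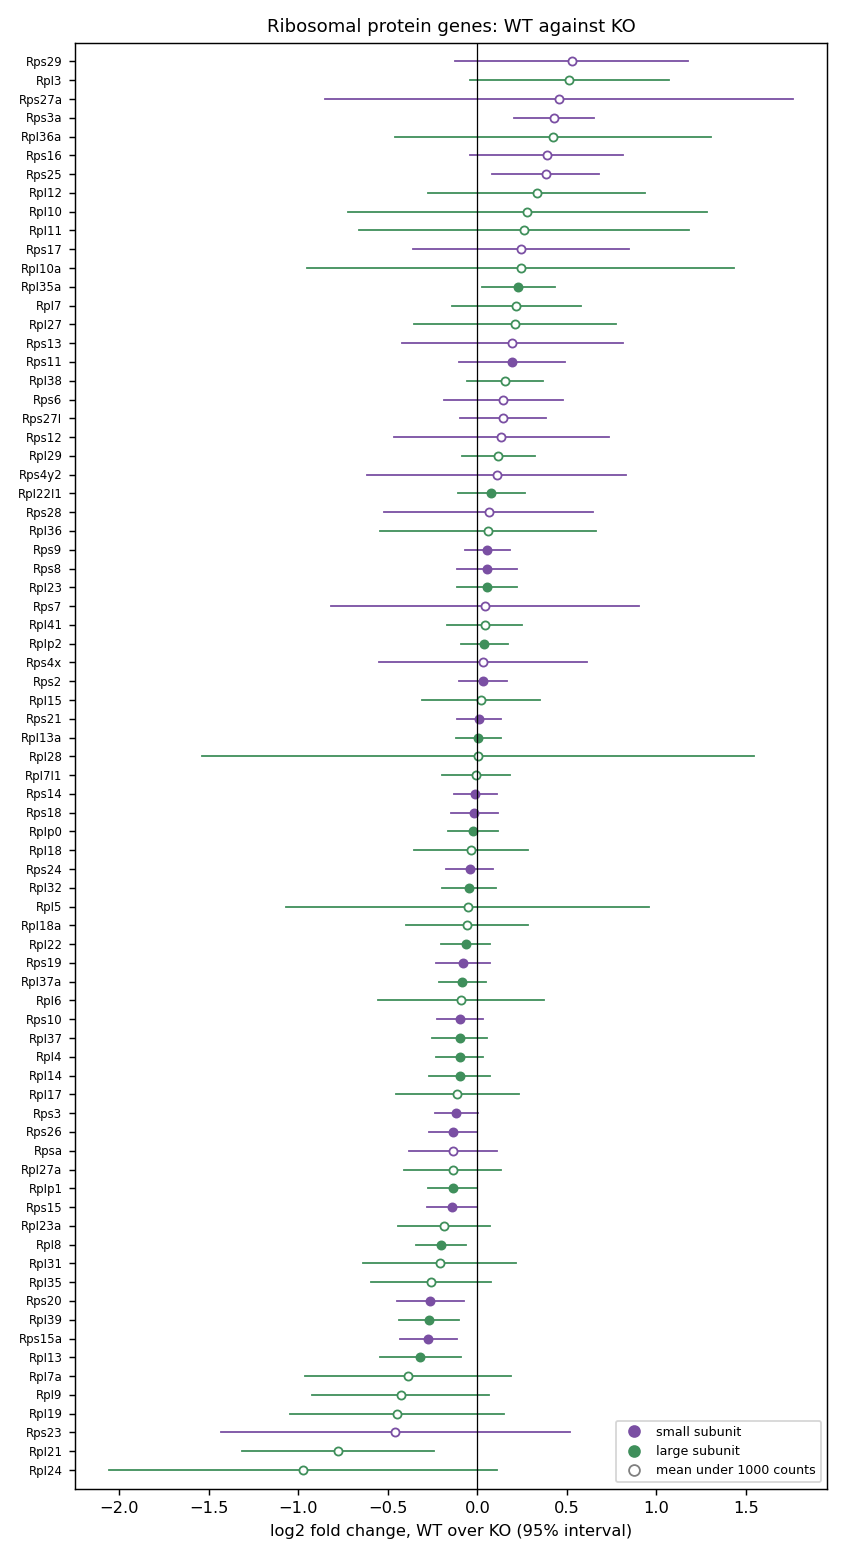
Log2 fold change of WT over KO with its 95% interval for 76 of the 77 tested genes, sorted, colored by subunit, with filled points where the mean reached 1000 counts. Intervals of 30 of the 31 filled points stay within 0.5 of 0, and those of the low-count genes at both ends are wide.

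The depth set what could be seen. Of the 32 genes with at least 1000 counts, 31 had a 95% interval that lay within 0.5 log2 of 0, a change of 1.41-fold, and 19 lay within 0.25. Of the 45 tested genes with fewer counts, 13 had an interval within 0.5, and for 13 of them a change of 2-fold was still inside it.

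Among the 32 deeply counted genes the estimates leaned below 0. Of these, 22 (68.8%) were lower in WT by their estimate, with a median of -0.06, beside 46.2% and 0.01 for the 2036 genes of the table with at least 1000 counts. In this class 0 ribosomal protein genes were called by edgeR and 0 by DESeq2, beside 102 called by edgeR of all 2036 genes (5.01%). An unadjusted p under 0.05 was found for 9 of the 32 (28.1%; 1 higher and 8 lower), beside 411 of the 2036 (20.2%; 232 higher and 179 lower). By library, the median deviation of the 32 genes from their own mean was -0.05, -0.09 and 0.04 (log2) for WT and 0.01, 0.05 and 0.06 for KO, in the order of the replicate numbers. WT replicate 3 was therefore inside the range of the KO libraries. The same medians over all 2036 genes stayed between -0.01 and 0.02. This class was drawn after the values were seen.

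**Figure D4:**
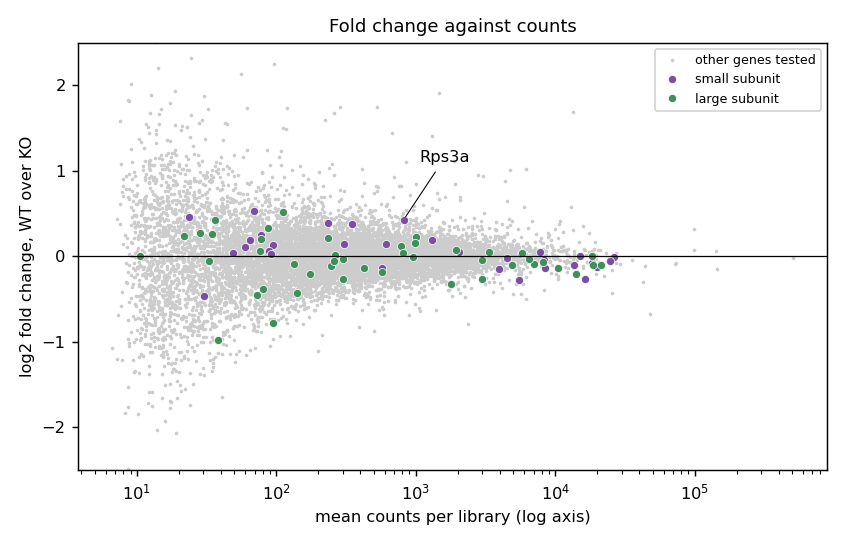
Log2 fold change of WT over KO against mean counts per library (log axis), gray for the other genes tested and colored for the ribosomal protein genes; the vertical axis stops at 2.5 and leaves out 5 genes, none of them ribosomal. To the right of 1000 counts 22 of the 32 colored points lie below 0, and Rps3a is marked at 0.43.

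Rps3a encodes a small-subunit protein that lies near the point where the mRNA leaves the ribosome, and it was the gene that was higher in WT. It lies at chr3:86137940-86142702 on the minus strand (mm10). It had 90.8, 114 and 86.5 CPM in WT and 75.6, 73.0 and 67.8 CPM in KO, from 670 to 992 counts per library. All WT libraries lay above all KO libraries, with WT replicate 2 the highest. The log2 fold change was 0.43 ± 0.11 (SE), with a 95% interval from 0.20 to 0.65 (1.35-fold; edgeR adjusted p = 0.0366). The edgeR adjusted p was 0.215 without WT replicate 2, 0.0882 without KO replicate 1, 0.133 without KO replicate 2 and 0.251 without KO replicate 3. It was 0.0613 with limma-voom, 0.0550 with ordinary dispersions in edgeR and 0.0233 with DESeq2. The gene's window shared 70% of its stretches with 7 other annotated genes, so reads from those copies cannot be told apart in part of it.

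The other 11 genes with an unadjusted p under 0.05 were not called. Of the small subunit, Rps15a, a small-subunit protein, had 476, 478 and 587 CPM in WT and 597, 662 and 604 CPM in KO. The KO libraries were all higher, and WT replicate 3 came closest to them. Its log2 fold change was -0.27 ± 0.08 (SE; edgeR adjusted p = 0.0670), and the edgeR adjusted p was 0.00792 without WT replicate 3 and between 0.119 and 0.315 without any other library. Rps20, whose protein sits on the head of the small subunit, had 1385, 1399 and 1774 CPM in WT and 1689, 1983 and 1798 CPM in KO. WT replicate 3 lay above KO replicate 1. Its log2 fold change was -0.26 ± 0.09 (SE; edgeR adjusted p = 0.200), and the edgeR adjusted p was 0.00553 without WT replicate 3 and between 0.154 and 0.457 without any other library. Rps26 (-0.14 ± 0.06) and Rps15 (-0.14 ± 0.07) were also estimated lower in WT. Rps25 stood on the other side, with 44.6, 41.0 and 36.8 CPM in WT and 32.8, 34.8 and 26.6 CPM in KO. Its groups did not overlap, and the log2 fold change was 0.38 ± 0.14 (SE; edgeR adjusted p = 0.238).

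Of the large subunit, Rpl39, a very short protein of 51 residues that lines the tunnel through which the new peptide leaves, had 268, 283 and 279 CPM in WT and 292, 379 and 329 CPM in KO. All KO libraries were above all WT libraries, and KO replicate 1 was closest to them. The log2 fold change was -0.27 ± 0.08 (SE; edgeR adjusted p = 0.101), and the edgeR adjusted p was 0.0332 without KO replicate 1 and between 0.126 and 0.534 without any other library. Its estimate was -0.17 without KO replicate 2. Rpl8, a protein close to the center where peptide bonds form, had 1283, 1282 and 1504 CPM in WT and 1493, 1665 and 1521 CPM in KO. WT replicate 3 again lay above KO replicate 1, the log2 fold change was -0.20 ± 0.07 (SE; edgeR adjusted p = 0.166), and the edgeR adjusted p was 0.0396 without WT replicate 3 and between 0.209 and 0.518 without any other library. Rpl13, a large-subunit protein, had 139, 158 and 197 CPM in WT and 183, 217 and 216 CPM in KO. WT replicate 3 exceeded KO replicate 1 here too, the log2 fold change was -0.32 ± 0.11 (SE; edgeR adjusted p = 0.193), and the edgeR adjusted p was 0.0179 without WT replicate 3 and between 0.116 and 0.544 without any other library. Its estimate was -0.21 without WT replicate 1. Rpl35a, mutated in Diamond-Blackfan anemia, a failure of red cell production, had 118, 116 and 101 CPM in WT and 106, 86.9 and 92.8 CPM in KO, with overlapping groups and a log2 fold change of 0.23 ± 0.10 (SE; edgeR adjusted p = 0.346). Rpl13, Rpl35a, Rpl8, Rps15, Rps15a, Rps20, Rps25 and Rps26 were chosen after their values were seen.

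**Figure D5:**
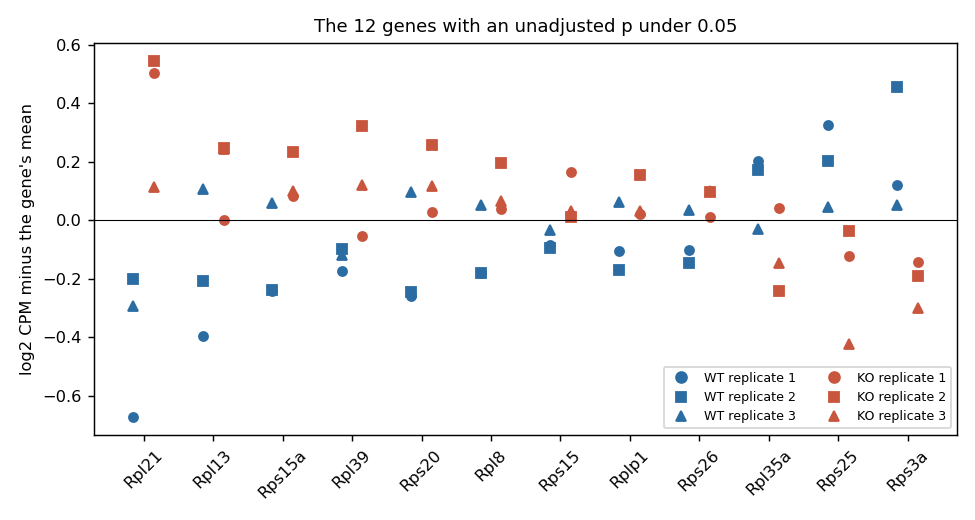
Log2 CPM of each library minus the gene's mean, for the 12 genes with an unadjusted p under 0.05, sorted by fold change, in blue for WT and red for KO with a symbol for each replicate number. In Rpl13, Rps20 and Rpl8 the WT replicate 3 triangle lies above the KO replicate 1 circle, and in Rps3a all blue symbols lie above all red ones.

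The genes with the most counts differed little. Rps14, a small-subunit gene known for its loss in a form of myelodysplasia, had 2726, 2692 and 2623 CPM in WT and 2706, 2838 and 2565 CPM in KO. The KO libraries spanned the WT ones, and the log2 fold change was -0.01 with a 95% interval from -0.13 to 0.11. Rpl4, which reaches into the peptide tunnel, had a log2 fold change of -0.10 ± 0.06 (SE) with overlapping groups. Rps3, which lies where the mRNA enters the small subunit, had 1912, 1985 and 2012 CPM in WT and 2062, 2186 and 2165 CPM in KO. All KO libraries were higher than all WT libraries, at -0.12 ± 0.06 (SE; edgeR adjusted p = 0.429). Rpl37 was at -0.10 ± 0.07 (SE).

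The stalk, a flexible arm of the large subunit that recruits translation factors, is built on Rplp0 and carries Rplp1 and Rplp2. Rplp0 had a log2 fold change of -0.02 with a 95% interval from -0.16 to 0.11, and Rplp2 of 0.04 with an interval from -0.09 to 0.17. Rplp1 had 1003, 960 and 1128 CPM in WT and 1096, 1203 and 1104 CPM in KO, with WT replicate 3 above KO replicates 1 and 3. Its log2 fold change was -0.14 ± 0.07 (SE; edgeR adjusted p = 0.420). Rpsa, a small-subunit protein also described as a laminin receptor, was at -0.14 with an interval from -0.38 to 0.11, and KO replicate 2 (73.4 CPM) stood apart from the other 5 libraries (55.1 to 57.1 CPM).

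The largest estimates belonged to genes with few counts, none of which was called besides Rps3a. Above 0 with a mean of at least 20 counts were Rps29 (0.53 ± 0.32), Rpl3 (0.51 ± 0.27), Rps27a (0.46 ± 0.64) and Rpl36a (0.42 ± 0.43; log2 fold change ± SE in each case). Rps27a is made as a fusion with ubiquitin, and WT replicate 2 had 53 counts beside 7 to 25 in the other libraries. Its estimate was -0.75 without WT replicate 2 and 0.95 without WT replicate 1. The estimate of Rps29 was 0.21 without WT replicate 3, and without WT replicate 2 those of Rpl3 and Rpl36a were 0.23 and 0.24. Rpl3, which shapes the peptidyl transferase center, ran from 8.51 to 18.6 CPM in WT and from 7.70 to 11.7 CPM in KO. Below 0 were Rpl24 (-0.97 ± 0.52), Rpl21 (-0.78 ± 0.26), Rps23 (-0.46 ± 0.48), Rpl19 (-0.45 ± 0.29) and Rpl9 (-0.43 ± 0.24). Single libraries moved some of these: Rpl24 was at -1.61 without WT replicate 1 and -0.53 without WT replicate 2, and Rpl19 at -0.27 without WT replicate 1. Rpl9 was at -0.22 without WT replicate 2 and -0.71 without WT replicate 3. Rpl21 had 63, 67 and 66 counts in WT and 143, 123 and 102 counts in KO, with no overlap. Its 95% interval ran from -1.32 to -0.24 and the edgeR adjusted p was 0.161. The window of Rpl21 shared 73.3% of its stretches with 57 other annotated genes. Rpl24, in a bridge between the subunits, had between 5 and 46 counts in WT and between 25 and 67 in KO, which overlapped.

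Paralogs were compared with their partners. Rpl22l1 can replace Rpl22 in the ribosome, and Rpl22 is known for its role in lymphocyte development. Rpl22l1 had 23.3%, 29.0% and 23.1% as many counts as Rpl22 in WT and 20.6%, 22.0% and 25.4% in KO, which overlapped. Log2 fold changes were -0.06 ± 0.07 for Rpl22 and 0.08 ± 0.09 for Rpl22l1 (SE). Rpl7l1 had more counts than Rpl7, whose counts were 28.5%, 28.7% and 22.0% of those of Rpl7l1 in WT and 22.9%, 19.9% and 24.9% in KO. The log2 fold changes were 0.22 ± 0.18 for Rpl7 and -0.01 ± 0.09 for Rpl7l1, and the window of Rpl7 shared 70% of its stretches with other genes against 31.1% for Rpl7l1. Rps27l, a target of p53, had a mean of 615 counts and a log2 fold change of 0.14 ± 0.12, where its partner Rps27 had 3 to 9 counts per library. Rps4x had 50 to 123 counts per library and was at 0.03 ± 0.28, and Rps4y2 had 43 to 81 counts and was at 0.11 ± 0.35. Rpl10, with 23 to 34 counts per library, was at 0.28 ± 0.49.

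Ribosomal proteins with further roles gave similar values. Rps6, the substrate of S6 kinase and a common readout of mTOR activity, had 36.6, 25.6 and 36.1 CPM in WT and 27.5, 33.9 and 27.8 CPM in KO. The groups overlapped and the log2 fold change was 0.15 with a 95% interval from -0.19 to 0.48. Rpl5 and Rpl11, which bind Mdm2 as a free particle when ribosome assembly is disturbed, were at -0.05 ± 0.49 and 0.26 ± 0.45 (SE), too few counts to bound a 2-fold change. Rps19, the gene most often mutated in Diamond-Blackfan anemia, had a mean of 18490.5 counts and was at -0.08 with an interval from -0.23 to 0.07. Rpl38, known for an effect on the translation of Hox mRNAs, was at 0.16 with an interval from -0.06 to 0.37.

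Further sets of genes around the ribosome were read from the same fit. Over all genes tested by edgeR, 1.82% were called and 11.9% had an unadjusted p under 0.05. Among 73 tested mitochondrial ribosomal protein genes, 0 were called by edgeR, 3 (4.11%) had an unadjusted p under 0.05, and the median log2 fold change was 0.01. Among 13 further mRNAs known to carry a TOP element, such as Eef1a1, Eef2 and Tpt1, 0 were called. Of these, 2 (15.4%) had an unadjusted p under 0.05, and the median was -0.04. Among 24 initiation factor genes 0 were called and 0 had an unadjusted p under 0.05, with a median of -0.01. Among 55 ribosome biogenesis genes 0 were called, 5 (9.09%, beside 11.9% of all genes) had an unadjusted p under 0.05, and the median was 0.03. DESeq2 called 1 gene over all of these sets and the next. Of 17 mTOR and translation control genes tested, 1 was called (5.88%) and the median was 0.08. An unadjusted p under 0.05 was found for 3 of them (17.6%), all higher in WT. The called gene, Eif4ebp2, encodes a repressor of cap-dependent initiation that mTOR switches off. It was higher in WT at 477, 505 and 475 CPM against 371, 432 and 320 CPM in KO, with no overlap. Its log2 fold change was 0.38 ± 0.08 (SE; edgeR adjusted p = 0.0158), and the edgeR adjusted p was 0.0543 without WT replicate 2, 0.0589 without WT replicate 3, 0.0802 without KO replicate 1 and 0.184 without KO replicate 3.

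Genes for ribosomal proteins that fall outside the naming rule were 4, of which 0 were called by edgeR and 1 had an unadjusted p under 0.05. This was Gnb2l1, now called Rack1, a scaffold on the head of the small subunit. It had 1831, 1843 and 1964 CPM in WT and 2004, 2334 and 2141 CPM in KO. The groups did not overlap, and the log2 fold change was -0.20 ± 0.06 (SE; edgeR adjusted p = 0.123). Fau (0.02 ± 0.38) and Rpl36al (-0.01 ± 0.16) were not called, and the 3 ribosomal protein pseudogenes in the table, which were tested, gave 0 calls, 0 with an unadjusted p under 0.05 and a median of -0.09.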

How the data were processed

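Per the labels and the study's methods, the authors prepared 3′-end libraries (QuantSeq), aligned reads to mm10 with STAR and counted them per gene with HTSeq; DESeq2 is also named. Versions, the use of strand and the treatment of reads with several matches were not given in the sources used here. The deposited values are raw counts, with no normalization and no pooling. The smallest row total was 10, and 0 sample columns were unused. No row lacked a gene name.

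Libraries were grouped by their titles. The test was edgeR's quasi-likelihood F test (version 4.0.16, R 4.3.3) with TMM factors, robust dispersions and filterByExpr, two-sided, adjusted by Benjamini-Hochberg over 10514 genes at 0.05. CPM are counts per 1000000 of TMM-scaled size, the SE was taken from F as |log2 fold change| over its root, and intervals are at 95%. All measured spread is between libraries of separate mice, and reads carry no molecular identifiers. Replicates differed beyond sampling noise (chi-square per degree of freedom 6.89 to 10.9), so none was a copy. Alternatives used DESeq2 (1.42.0), limma-voom (limma 3.58.1), other scalings and filters, a replicate block and each library left out. The fitting script was tested on simulated data.

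Coordinates and transcripts are from GENCODE vM21 (GRCm38, the assembly of mm10), and start sequences are from RefSeq (GRCm38.p6). The ribosomal protein genes, companion lists and markers were chosen with earlier results of these data known. Genes were named if they were called, were among the 5 largest estimates in each direction with at least 20 counts, had the most counts, or belonged to the stalk, paralog or further-role groups; any named besides are marked in the text. Some genes named by this rule are not reported here.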

Additional observations from a re-analysis of the deposited data

How the results depend on the processing

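The count of ribosomal protein genes called was 1 under 4 other scalings, DESeq2 and a rule widened by 4 genes. It was 2 with no filter on low counts and 2 with a mean of at least 50 counts (Rps15a added), 0 with limma-voom, 0 with ordinary dispersions, 0 at an adjusted p under 0.01, 5 with the replicate block, and from 0 to 5 with a library left out. The 5 without WT replicate 3 were Rpl13, Rpl8, Rps15a, Rps20 (lower in WT) and Rps3a (higher). The cause was not tested. Over the companion lists the count was 2 with the replicate block (Ddit4 and Eif4ebp2), 0 at an adjusted p under 0.01 and from 0 to 2 with a library left out. The median log2 fold change was -0.057 for genes with at least 1000 counts, an alternative chosen after seeing the data. The share difference was -0.172 points over the genes with under 60% shared sequence, also chosen after seeing the data. Under the other alternatives the share difference and the median moved by less than the spread between replicates. Same-numbered libraries correlated at 0.098, 0.031 and 0.049 in their deviations, every library correlated best with its own number, and the labels do not pair the mice. With the replicate block 281 genes were called in the whole table against 191, and the 5 ribosomal protein genes were Rpl13, Rpl39, Rps15a, Rps20 and Rps3a. For single genes, 671 values kept their side of the threshold, 11 passed it, 15 lost it and 0 called values changed sign. Depth limits the 49 genes under 1000 counts, and the treatment of reads shared with pseudogenes was not given.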
